A study of Talpa occidentalis and Mus musculus with 35 samples.

Results

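Across the annotated genome of the Iberian mole (Talpa occidentalis), 516 intervals of 500 kb or more lay between consecutive gene models, of 20408 gaps in all. These gene deserts were chosen by their measured length. All gene lines on a scaffold of assembly talOcc3 were united into non-overlapping blocks, and every gap of at least 500000 bases between neighbouring blocks was taken. Their number and lengths are therefore a description and carry no test. The series held 35 RNA libraries from gonads, 19 from the mole and 16 from the mouse, in 16 groups. Those of the mole are ovotestis and testis at embryonic day 15, and, for postnatal day 7 and for adults, testis and both parts of the ovotestis taken separately (ovarian and testicular). Those of the mouse are CD1 ovary and testis at embryonic day 13.5, postnatal day 7 and 10 weeks, and embryonic day 13.5 ovaries of B6 and of Fgf9 mutant mice. The annotation used here holds gene models and no value per library, so no group of animals was compared and the library depth is unknown.

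Gene deserts are long stretches of a genome without protein-coding genes. In mammals many of them hold enhancers that act over long distances on a developmental gene at one edge, and genes whose introns and flanks are both long, such as those for neuronal adhesion proteins, are often found beside them. FGF9 and SOX9, which promote testis development, and NR2F2, a nuclear receptor of gonadal interstitial cells, are genes of the gonad with such surroundings. Whether a desert of the mole holds an enhancer cannot be read from gene models.

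The 516 deserts made up 2.53% of all gaps but summed to 448 Mb. That was 33.1% of the sequence between gene blocks and 23.3% of the 1924 Mb between the first and last gene lines of the scaffolds. Their median length was 746 kb (95% interval 711 to 777), with quartiles of 594 and 1022 kb, against a median of 16.3 kb over all gaps. Short deserts prevailed: 136 measured from 500 kb to under 600 kb, 137 reached 1000 kb and 9 reached 2000 kb. The last deserts inside the threshold were PIEZO2–HSPA8_copy8 with 500183 bases, ERCC4–SHISA9 with 500940 and TBX18–NT5E with 501311. The first gaps outside it were HAND2–FBXO8 with 499607 bases, DNAJA1_copy4–RYBP with 499219 and LRP1B–LRP1B_copy2 with 498735. A suffix such as _copy4 is the file's mark for a further locus of a symbol.

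The longest desert, 3.37 Mb, ran on scaffold 13 from 53489551 to 56863860, between AGA and TENM3. AGA encodes a lysosomal enzyme and TENM3 a teneurin, a synaptic adhesion protein, and the 5′ ends of both models faced the desert. Teneurins bounded further deserts among the 12 longest. TENM4 ended a desert of 2.51 Mb on scaffold 22 (8043195 to 10557887) that began at ARPC3_copy4, and TENM2_copy2 ended one of 2.08 Mb on scaffold 21 that began at ARF1_copy2. Protocadherins, which are adhesion proteins of the cadherin superfamily, bounded 2 of the 12. PCDH7 lay at a desert of 2.36 Mb on scaffold 10 opposite CYP2R1_copy2, and PCDH18 at one of 1.99 Mb on scaffold 1 opposite RPS12_copy4. EFNB2, a membrane-bound ephrin ligand, bounded 2.1 Mb on scaffold 39 opposite MRPL42_copy6.

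The other edges among the 12 longest were of mixed roles. ZEB2, a zinc finger homeobox repressor, faced PPIA_copy7 across 2.43 Mb of scaffold 1, with both 5′ ends toward the desert. TYRP1, a melanin synthesis enzyme, lay opposite RPL29_copy9 across 2.43 Mb of scaffold 15. BCL11A, a zinc finger regulator of blood and brain development, and FANCL, a ubiquitin ligase of DNA repair, bounded 2.07 Mb of scaffold 9. BRINP3, a neuronal protein, faced BROX across 2.06 Mb of scaffold 35 with both 3′ ends toward the desert. LRRC4C, a postsynaptic adhesion protein, lay opposite KIF14_copy2 across 1.98 Mb of scaffold 18, and PIK3C3, a lipid kinase of autophagy, opposite SLC35F5_copy2 across 1.98 Mb of scaffold 3. In 9 of the 12 at least 1 edge was a locus with a copy suffix.

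**Figure D1:**
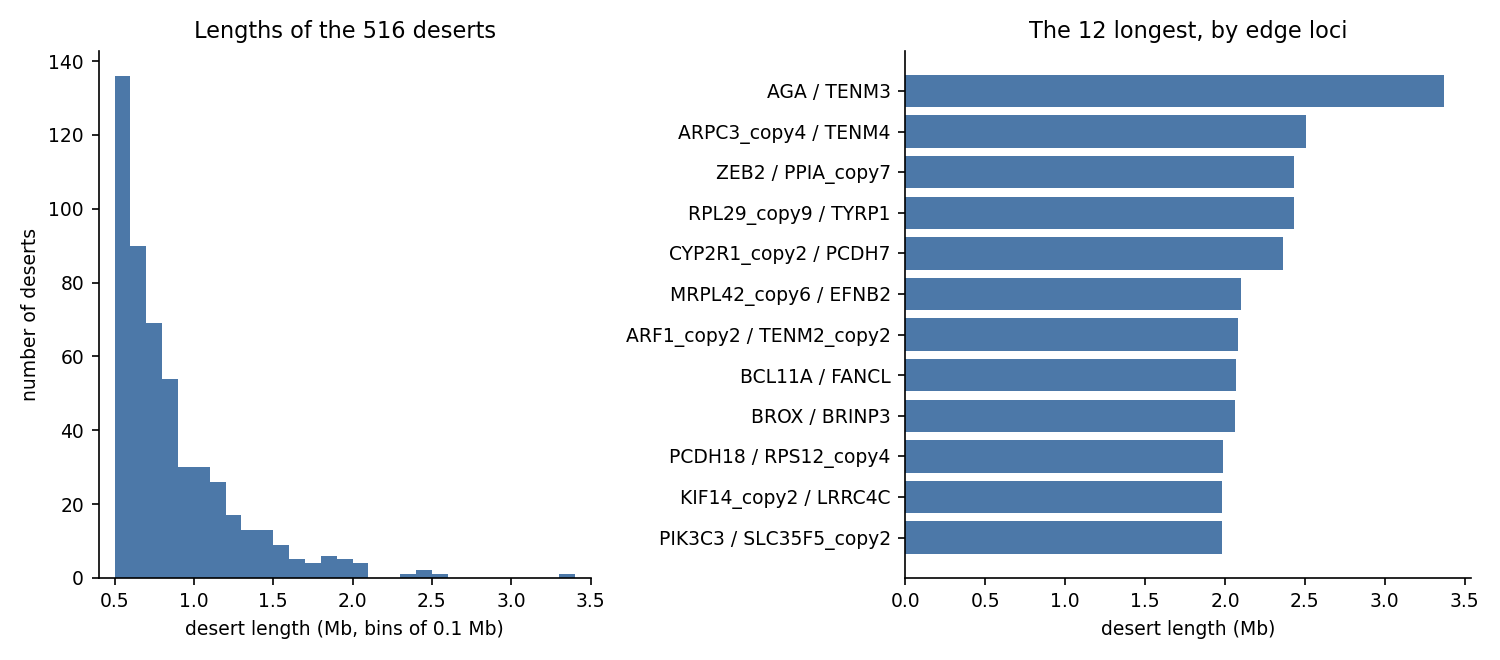
Lengths of the mole deserts. Left, the number of deserts (y axis) in bins of 0.1 Mb of length (x axis), with 136 deserts in the shortest bin; right, the 12 longest deserts as bars of length in Mb, named by the loci at their edges, with AGA / TENM3 at 3.37 Mb ahead of the next at 2.51 Mb.

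The 1032 edges were formed by 945 distinct loci, of which 908 carried a gene symbol. Models with more than 1 exon and no copy suffix made up 592 of the edge loci, 62.6% (59.5 to 65.7), close to the 63.4% they made up of the file. Here and below, shares are followed by exact binomial 95% intervals, which describe counts of models and not animals. Single-exon copies made up 17.5% of edge loci (15.1 to 20) and 12.3% of the file, and loci without a symbol 3.92% and 7.91%. Single-exon models of any name made up 28.4% of edge loci (25.5 to 31.4) and 24.7% of all loci. Both edges were multi-exon models without a copy suffix in 209 deserts, 1 edge was in 226 and neither was in 81.

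Edge genes were long. Among multi-exon models without a copy suffix, the median span of the gene line was 48.2 kb at desert edges (39.5 to 59.8) and 15.5 kb in the whole file (15.1 to 16). The median number of exons was 8 in both, and the median coding lengths were 1523.5 and 1377 bases. Spans of 200 kb or more occurred in 15.4% of these edge models and in 2.79% of all. Over 640 edge positions of these models, the gap on the other side had a median of 99.2 kb (82.7 to 124) and was itself a desert in 16.2%. The gaps on either side of all such models had a median of 17.8 kb and were deserts in 2.24%. A gene with deserts on both sides counts at both positions, and 52 of the 592 edge models had them.

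Deserts also came in series. A desert lay on both sides of 87 loci, 52 of them multi-exon models without a copy suffix. SLC35F5_copy2 had the most desert around it, 1978 kb on one side and 1863 kb on the other. LRRC4C followed with 1981 and 1526 kb, and FLRT2, which encodes an adhesion and guidance receptor, with 1762 and 1718 kb. BRINP3 had 2056 and 1344 kb, and CDH8, a classical cadherin of neurons, 1859 and 1438 kb. The other 3 of the top 8 were the single-exon copies ARF1_copy2, ARPC3_copy4 and RPL29_copy9, with 3374, 3355 and 3258 kb summed over both sides. With at most 1 locus between consecutive deserts, 160 of the 516 deserts (31%) fell into 74 runs. Allowing up to 3 loci between them, 256 deserts (49.6%) fell into 105 runs.

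With at most 1 locus between deserts, the longest run was a cadherin region. On scaffold 8, 6 deserts followed each other over 5.98 Mb (8626132 to 14602686), from CDH18 through CDH12, CDH10 and CDH9 to CDH6, with RPL36A_copy11 and TRHDE_copy2 as the other loci inside. Classical cadherins are calcium-dependent adhesion proteins, and these 5 are type II members. The deserts measured 1066 kb between CDH18 and CDH12, 1337 kb between CDH12 and CDH10, 1114 kb between CDH10 and CDH9, 834 kb from CDH9 to RPL36A_copy11, 521 kb from there to TRHDE_copy2 and 881 kb from TRHDE_copy2 to CDH6. A second cadherin run, of 4 deserts over 5.69 Mb, lay on scaffold 36 around CDH11, ZNF431 and CDH8. With up to 3 loci between, that run grew to 5 deserts over 6.52 Mb, ending at GOT2, and was the longest by extent. ZNF431, the locus between the cadherins, is a zinc finger gene model of 2 exons.

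Cadherins and other adhesion genes stood at desert edges more often than the average gene. Of all 21490 named loci, 4.23% were an edge of a desert, 908 in number. Among cadherins with CDH names 11 of 26 loci were an edge, 42.3% (23.4 to 63.1), led by CDH8, CDH2 (1630 kb) and CDH12. This list, labelled classical cadherins, takes every CDH name, so not every member need be a classical cadherin. Among protocadherins 6 of 22 were, 27.3% (10.7 to 50.2). Among neuronal adhesion molecules 40 of 126 were, 31.7% (23.7 to 40.6), including LSAMP, an adhesion protein of the neuronal surface, at 1804 kb. This list was also matched by name and takes in ADGRL4 and LRP1B, so not every member need be a neuronal adhesion molecule. Among axon guidance ligands and receptors 12 of 81 were, 14.8% (7.9 to 24.4), with the guidance receptors ROBO1 at 1669 kb and EPHA4 at 1452 kb next after EFNB2. The 4 lists together had 69 of 255 loci at an edge, 27.1% (21.7 to 33), and 63 of 215 when loci with a copy suffix were left out. The deserts they bounded had a median of 1066 kb, against 746 kb over all deserts. The lists were drawn up with earlier results of these data known, so these shares describe them and are no independent evidence.

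Some families are described from gene names that share a root and occur at 3 or more edge loci, and so were picked for being at edges. All 3 BRINP genes were edges: BRINP3 as above, BRINP1 at 862 kb opposite CDK5RAP2 and BRINP2 at 618 kb opposite SEC16B. Of 6 SLITRK loci, which encode neuronal transmembrane proteins that shape synapses, 5 were edges. SLITRK6 and SLITRK1 faced each other across 1081 kb of scaffold 6, and SLITRK1 bounded a further 1573 kb. On scaffold 30, SLITRK2 and SLITRK4 faced each other across 1109 kb with both 5′ ends toward the desert, and SLITRK4 and LDOC1 bounded the next 1101 kb. The latrophilin receptor names ADGRL, the contactin-associated names CNTNAP and the teneurins had 3 of 5 loci each at an edge.

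Receptors and channels of neurons were spread over a range. Glutamate receptors had 7 of 28 loci at an edge, 25% (10.7 to 44.9), led by GRIK2, a kainate receptor subunit, at 1577 kb, with GRM3, a metabotropic receptor, at 1054 kb. Potassium channels had 11 of 98, 11.2% (5.74 to 19.2), led by KCNJ2 at 1422 kb and KCNJ3 at 1088 kb. G protein-coupled receptors of monoamines and peptides and orphan receptors had 16 of 200, 8% (4.64 to 12.7), among them ADGRL2, ADGRL3 and CHRM3, a muscarinic acetylcholine receptor, at 1419 kb. GABA and glycine receptors had 2 of 28, with an interval of 0.877 to 23.5% that includes the share of all named loci.

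Developmental transcription regulators were edges in 73 of 555 loci over 8 lists, 13.2% (10.5 to 16.3). The SOX genes had 4 of 13 loci at an edge: SOX9 at 1422 kb, SOX5 at 872 and 725 kb, SOX6 at 604 kb and SOX2 at 594 kb. Nuclear receptors had 9 of 47, 19.1% (9.15 to 33.3), and THRB and RARB, receptors for thyroid hormone and retinoic acid, faced each other across 999 kb of scaffold 12 with both 5′ ends toward the desert. RORA, a circadian and immune regulator, bounded 1110 kb opposite VPS13C. The forkhead genes had 5 of 34 and the T-box, GATA and paired-box genes 5 of 33. Among these, GATA3, a regulator of T cells and the inner ear, bounded 1095 kb opposite GNPTAB_copy3, and TBX3, a limb and mammary regulator, 977 kb opposite MED13L. Homeobox genes had 21 of 178, 11.8% (7.45 to 17.5), with ZEB2, POU3F2 at 1232 kb opposite MMS22L, and MEIS1, a cofactor of HOX proteins, at 730 and 974 kb. Developmental zinc finger genes had 10 of 111, 9.01% (4.41 to 15.9), led by BCL11A and BCL11B. The remaining regulators had 16 of 77, 20.8% (12.4 to 31.5), among them MEF2C, a regulator of muscle and neurons, at 1321 kb. Basic helix-loop-helix genes had 3 of 64, 4.69% (0.977 to 13.1), with BHLHE22 at 1212 kb, and this share did not stand apart from that of all named loci.

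A list of 50 loci of developmental genes known as background for control over long distances had 28 at an edge, 56% (41.3 to 70). Besides genes named above they included DACH1, a regulator of eye and limb development, between deserts of 875 and 547 kb, and SALL1, a kidney regulator, at 913 kb opposite TOX3. All of the 28 but FGF9 and BMP2 are also counted among the transcription regulators. The list was picked for such control, with earlier results of these data known, so its share is no independent evidence. Secreted growth factors and morphogens had 8 of 116 at an edge, 6.9% (3.02 to 13.1), FGF9 and INHBA first among them. This interval includes the share of all named loci. NRG3 and NRG3_copy2, both among the 8, bound the same desert.

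Families of many similar loci varied. Olfactory receptors had 2 of 893 loci at an edge, 0.224% (0.0271 to 0.807), OR51G2 at 1526 kb and OR7A10_copy13. Numbered zinc finger genes had 15 of 401, 3.74% (2.11 to 6.09), with ZNF431 first, an interval that includes the share of all named loci. Histones had 0 of 36 loci at an edge, which allows a share of up to 9.74% and does not set them apart, and loci named after genes of the mitochondrial genome 0 of 433, up to 0.848%. Cytosolic ribosomal protein names had 56 of 535, 10.5% (8 to 13.4), a share above that of all named loci. Without loci that carry a copy suffix it was 3 of 94, 3.19%, so the ribosomal edges were nearly all copies, such as RPL29_copy9 and RPS12_copy4. Whether such copies are functional genes was not tested.

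**Figure D2:**
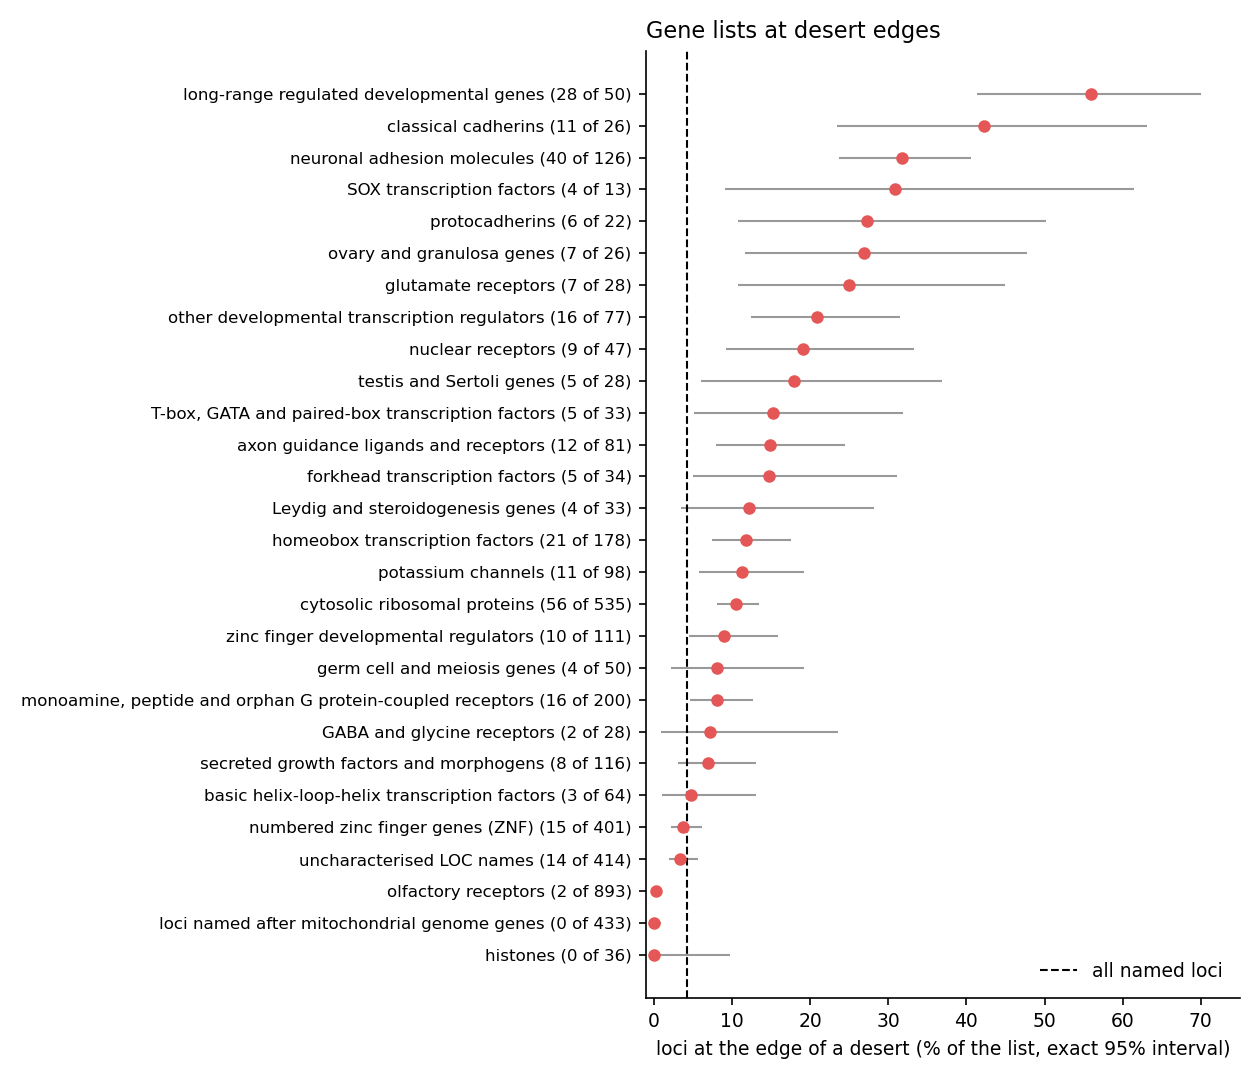
Gene lists at desert edges. Points give the percent of a list's named loci that bound a desert (x axis), lines the exact 95% interval, and the dashed line the 4.23% of all named loci; the numbers beside each list are edge loci of all its loci. The long-range list (56%) and the CDH names, labelled classical cadherins (42.3%), lie highest. Olfactory receptors, mitochondrial names and histones lie at or near 0. The lists were drawn up with earlier results of these data known.

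Since the libraries came from gonads, edge genes with roles there are given one by one. Of 26 ovary and granulosa genes 7 were edges, 26.9% (11.6 to 47.8), of 28 testis and Sertoli genes 5, 17.9% (6.06 to 36.9), of 33 Leydig and steroidogenesis genes 4, 12.1% (3.4 to 28.2), and of 50 germ cell and meiosis genes 4, 8% (2.22 to 19.2). The last 2 intervals include the share of all named loci. FSHR stands in both of the first lists and NR2F2 in the ovary and Leydig lists.

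On the testis side, SOX9, the transcription factor that directs Sertoli cell differentiation, ended a desert of 1422 kb on scaffold 28 (17941397 to 19363396) that began at KCNJ2, and its gap on the other side was 386 kb. The 5′ end of SOX9 faced this desert. The SOX9 model was a single exon of 0.841 kb, beside a span of 2.92 kb in the mouse. FGF9, the growth factor that supports Sertoli cells, lay behind the 59th longest desert, 1326 kb on scaffold 38 from RUBCNL, with both 3′ ends toward it. ZFPM2, a cofactor of GATA4 in the gonad, had deserts of 643 kb toward LRP12 and 549 kb toward OXR1. CITED2, a transcriptional coactivator of early gonad development, had 1100 kb toward RPL7A_copy12 and 64.3 kb on the other side. ZFPM2 was thus flanked by desert on both sides, and SOX9, FGF9 and CITED2 on one.

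On the ovary side, NR2F2 had the most desert, 1477 kb toward MCTP2 and 1166 kb toward ARRDC4 on scaffold 33 (7176009 to 8652830 and 8667826 to 9834037). BMP2, a ligand of the transforming growth factor beta family, had 520 kb toward FERMT1 and 837 kb toward HAO1. INHBA, the activin and inhibin subunit of granulosa cells, had 839 kb toward SUGCT at its 3′ end and 290 kb on the other side. RUNX1, a regulator of granulosa cells and blood, had 778 kb toward RPL5_copy8 at its 5′ end. KITLG, the ligand of the germ cell receptor KIT, had 590 kb toward DUSP6, and IRX5, a homeobox gene of granulosa cells, 536 kb toward KLHL41. The IRX5 locus was a single-exon model. FSHR, the receptor for follicle-stimulating hormone, bounded a desert of 522 kb. NR2F2 and BMP2 were the ovary genes with deserts on both sides.

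Among Leydig genes, MAF, which encodes a leucine zipper factor, bounded 846 kb toward DYNLRB2. The MAF model was a single exon of 0.096 kb, beside a span of 13.7 kb in the mouse. None of the steroid-making enzymes on this list of 33 loci was an edge. With 4.23% of all named loci at an edge, this absence does not set so few loci apart. Among germ cell genes, TDRD15, a tudor domain gene, bounded 1928 kb toward KLHL29, the 13th longest desert. NANOG_copy5 bounded 777 kb, PRDM1, a repressor that specifies germ cells, 614 kb toward PREP, and TDRD3, a further tudor domain gene, 536 kb toward PCDH20. The edge locus of NANOG, a pluripotency factor, was 1 of its copies, a single-exon model.

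The strand of the edge genes was not used to choose the deserts. Both 5′ ends faced the desert in 150 of 516, 29.1% (25.2 to 33.2), both 3′ ends in 109, 21.1% (17.7 to 24.9), and 1 of each in 257, 49.8% (45.4 to 54.2). Among the 19892 gaps under 500 kb, both 5′ ends faced the gap in 23.2% (22.6 to 23.7) and both 3′ ends in 23.1%. The shorter gaps were not uniform. The share with both 5′ ends inward was 16.1% below 10 kb, 25.9% from 10 kb to under 100 kb and 34.5% (32.7 to 36.4) from 100 kb to under 500 kb, so the deserts lay below the class next to them in length, with overlapping intervals.

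The step back at 500 kb was larger where both edges were multi-exon models without a copy suffix. The share with both 5′ ends inward was then 20.6, 27 and 38.3% (35.7 to 40.9) in the 3 shorter classes and 25.4% (19.6 to 31.8) in 209 deserts. Over all such gaps under 500 kb it was 26% (25.2 to 26.8), so these deserts did not stand above shorter gaps. Both 3′ ends faced inward in 40.8, 20.1 and 12.4% of the shorter classes and in 22.5% (17 to 28.8) of the deserts. Deserts of 1000 kb or more gave 29.4% and 17.6% over 51 deserts, with intervals of 17.5 to 43.8% and 8.4 to 30.9%. No test was made between classes, since gaps that share a gene are not independent. Edge positions held by adhesion and guidance genes had the 5′ end toward the desert in 56 of 91, 61.5% (50.8 to 71.6), and those held by transcription regulators in 50 of 82, 61% (49.6 to 71.6), beside 541 of 993 named edge positions, 54.5% (51.3 to 57.6). Both intervals include the share of all named edge positions. Among the 91, CDH names had 11 of 17, protocadherins 2 of 8, neuronal adhesion molecules 33 of 51 and guidance genes 10 of 15.

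**Figure D3:**
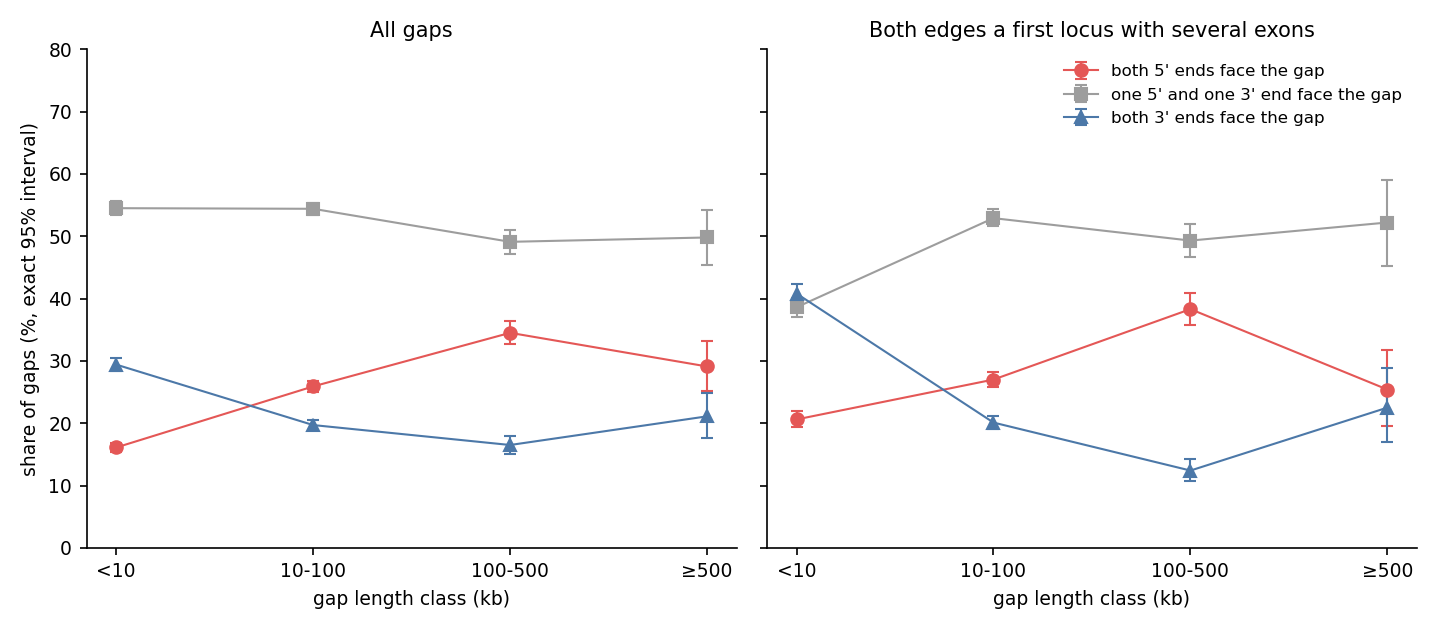
Strand of the edge genes by gap length. The y axis gives the percent of gaps with both 5′ ends, 1 of each, or both 3′ ends facing the gap, with exact 95% intervals, in 4 length classes on the x axis; left, all gaps, right, gaps whose edges are both multi-exon models without a copy suffix. The share with both 5′ ends inward is highest from 100 kb to under 500 kb (34.5% and 38.3%) and lower in deserts (29.1% and 25.4%).

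Only 5 deserts had a single symbol on both sides, 0.969% against 8.48% of shorter gaps. They lay between loci of NRG3, a neuregulin, on scaffold 11 (808 kb), PDE4D, a phosphodiesterase, on scaffold 8 (687 kb), WWOX, an oxidoreductase, on scaffold 26 (660 kb), KAZN, a junction protein, on scaffold 2 (557 kb) and AUTS2, a regulator of neurons, on scaffold 5 (529 kb). In all 5 the loci were on the same strand. In NRG3 and AUTS2 the models on the 2 sides covered consecutive, non-overlapping parts of the reference transcript. For those 2 the file leaves it undecided whether the desert lies between genes or within an intron. For other deserts, including those beside a model much shorter than in the mouse, this was not tested.

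The mouse was used to ask whether the same genes bound a similar interval elsewhere. Both edge symbols were named once in the mole file and once among mouse protein-coding genes (GRCm38, GENCODE M21) in 178 deserts. The edge genes were on 1 mouse chromosome in 167, and in 131, 73.6% (66.5 to 79.9), no mouse coding gene lay between them. For gaps under 500 kb that share was 89.4%, and for gaps from 100 kb to under 500 kb 84.5% (82.3 to 86.6). Of the 131, 115 were 500 kb or more in the mouse as well, 87.8% (80.9 to 92.9). Most deserts whose edges could be compared were therefore a mouse desert with the same edges.

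AGA and TENM3 bounded the longest such interval in both species. In the mouse it measured 4837 kb on chromosome 8 (48674642 to 53511804), and it was the longest of 776 mouse gaps of 500 kb or more between coding spans. Those 776 were 3.73% of 20781 mouse gaps, with a sum of 876 Mb and a median of 858 kb. Over the pairs that were neighbours in both species the median was 665 kb in the mole (633 to 728) and 834 kb in the mouse (762 to 895). The median ratio of mole to mouse length was 0.86 (0.81 to 0.90), with 93 deserts shorter in the mole and 37 longer, and Spearman's rho of the 2 lengths was 0.67 over pairs from the same assemblies. Gaps from 100 kb to under 500 kb had medians of 171 kb in the mole and 161 kb in the mouse, with an interval of the ratio from 0.97 to 1.03. Choosing instead the 163 pairs with 500 kb or more in the mouse gave a ratio of 0.76 (0.72 to 0.79), and 115 of them, 70.6%, were deserts in the mole.

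The ratios of single deserts are given here beside the spans of their edge models. The largest ratios were 6.24 for NAV2 and E2F8 (525 kb in the mole, 84.1 kb in the mouse), 6.10 for NKAIN2 and RNF217 (503 and 82.5 kb), 3.25 for GRIP1 and CAND1 (698 and 215 kb) and 2.90 for SPATA19 and OPCML (1132 and 391 kb). In each of these, 1 edge gene had a much shorter span in the mole file. NKAIN2, a membrane protein of neurons, spanned 67 kb in the mole and 1199 kb in the mouse, and OPCML, an adhesion protein, 226 and 1129 kb. NAV2, a neuron navigator, spanned 280 and 642 kb, and GRIP1, a synaptic scaffold protein, 180 and 633 kb. Of 7 deserts at least 2 times as long as in the mouse, 6 had an edge model under 0.5 of the mouse span. TRDN–NKAIN2 and NKAIN2–RNF217, both among the 7, share the NKAIN2 model. An edge model that short occurred in 58 of 130 pairs. Of these 58 deserts 37.9% were longer in the mole, beside 20.8% of the other 72. The median ratios of the 58 and the 72 lay closer, at 0.90 and 0.83. A model that stops short of the desert also leaves a longer gap by definition, so these values are a description. Measured from the outer end of one edge gene to the outer end of the other, the median ratio over the 130 pairs was 0.80 (0.75 to 0.84). By this measure NAV2–E2F8 had 1.11, NKAIN2–RNF217 0.49, GRIP1–CAND1 1.02 and SPATA19–OPCML 0.90.

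The smallest ratios included 0.40 for FBXO15 and NETO1 (568 kb in the mole, 1415 kb in the mouse), 0.45 for SLC16A7 and FAM19A2 (665 and 1489 kb) and 0.46 for ACTRT1 and PRR32 (563 and 1236 kb). ACTRT1 and PRR32 are short genes with nearly equal spans in both species, 1.12 and 1.13 kb for ACTRT1. NETO1, an auxiliary subunit of glutamate receptors, spanned 78.6 and 104 kb. FAM19A2, a secreted protein of neurons, spanned 3.12 kb in the mole and 308 kb in the mouse.

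**Figure D4:**
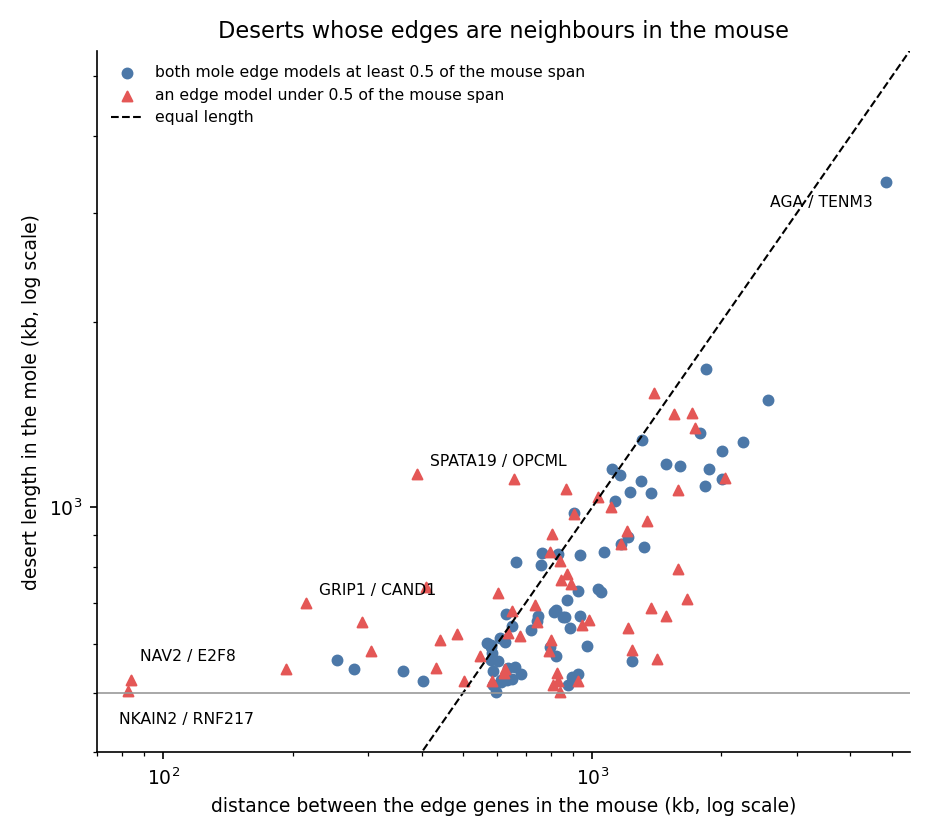
Desert length in the mole (y axis, kb, log scale) against the distance between the same edge genes in the mouse (x axis, kb, log scale) for 130 deserts whose edges are neighbours in both; the pair that overlaps in the mouse has no point. The dashed line marks equal length and the grey line the 500 kb bound; triangles are pairs with an edge model under 0.5 of its mouse span. Points lie mostly to the right of the dashed line (93 shorter in the mole), and the points farthest to its left are triangles.

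In 47 deserts the edge genes were not neighbours in the mouse. In 30 of them 1 to 3 mouse coding genes lay between, for example Ins1 between SORCS1 and XPNPEP1, Acot10 between CDH12 and CDH10, Id2 between RNF144A and KIDINS220, Cxxc4 between TET2 and TACR3 and Zfp352 between DMRTA1 and ELAVL2. These 5 were chosen after the genes between were seen. Counting only mouse genes that are also named in the mole file, 90.4% (85.1 to 94.3) of the 178 pairs were neighbours. In 11 the edges were on different mouse chromosomes, and in 3 more than 20 genes lay between. BROX and BRINP3, at the 9th longest desert, were 36.4 Mb apart in the mouse with 338 coding genes between, SETBP1 and SYT4 (991 kb in the mole) 47.3 Mb with 381, and RUBCNL and FGF9 16.9 Mb with 150.

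A later mole annotation, MPIMG_talOcc4v2.1, served for gene names and gene order only. Both edges were found in it for 182 deserts, on 1 sequence in 177, and in 153, 84.1% (77.9 to 89.1), with no protein-coding locus between, beside 93.2% of gaps under 500 kb. It listed at least 1 long non-coding RNA locus inside 107 of the 153, 69.9%, beside 7.48% of the shorter gaps, and 251 in all. A longer interval has more room for such a locus, and no value per kb was computed. MEIS1–SPRED2 held 7 of them, KCNJ2–SOX9 held 6, MCTP2–NR2F2 held 5 and AGA–TENM3 held 3, whereas THRB–RARB and CDH10–CDH9 held none.

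The later annotation separated the 47 pairs that were not neighbours in the mouse. Of 11 with edges on different mouse chromosomes, 4 had no coding locus between in the later mole assembly (PSMB4–SGCD, CDH20–MC4R, TMX3–DSEL and TFPI–GULP1). On different sequences lay 5, among them SYNJ2BP–SLITRK5, SELENOH–RAPGEF2, NUDT12–SPINK1 and PAX1–MRPL53. In the remaining 2 coding loci lay between, 1 for NAF1–FSTL5 and 130 for RBM26–RFC3. For BROX–BRINP3 the later annotation had 1 coding locus between, and for SETBP1–SYT4 and RUBCNL–FGF9 none. The adjacency in talOcc3 was thus also present in the later mole annotation for some of these deserts and absent for others.

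Deserts lay on 48 scaffolds, and each of the 41 scaffolds annotated over 10 Mb or more had at least 1. Scaffold 1 had most, 38, the longest being ZEB2–PPIA_copy7. Scaffold 8 had 32, with CDH12–CDH10 longest, scaffold 4 had 29, with ARPC2_copy2–LSAMP longest, and scaffolds 3 and 6 had 28 each, with PIK3C3–SLC35F5_copy2 longest on scaffold 3. Deserts took from 3.45% to 39.7% of the annotated extent of the 41, with a median of 20.9%. The share was lower on gene-rich scaffolds, with Spearman's rho of -0.63 and Pearson's r of -0.53 against gene lines per Mb over the 41. Desert length and gene density share the same extent, so the relation is a description. Scaffold 36 stood apart, with 27.6 gene lines per Mb and 34% of its extent in deserts, those around the cadherins, while scaffold 34 with 27 gene lines per Mb had 3.45%. Scaffold 52, with 1.63 Mb annotated, had 85.1% in the single desert KLRA1P–KLRC1_copy2, between killer cell lectin-like receptor loci.

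**Figure D5:**
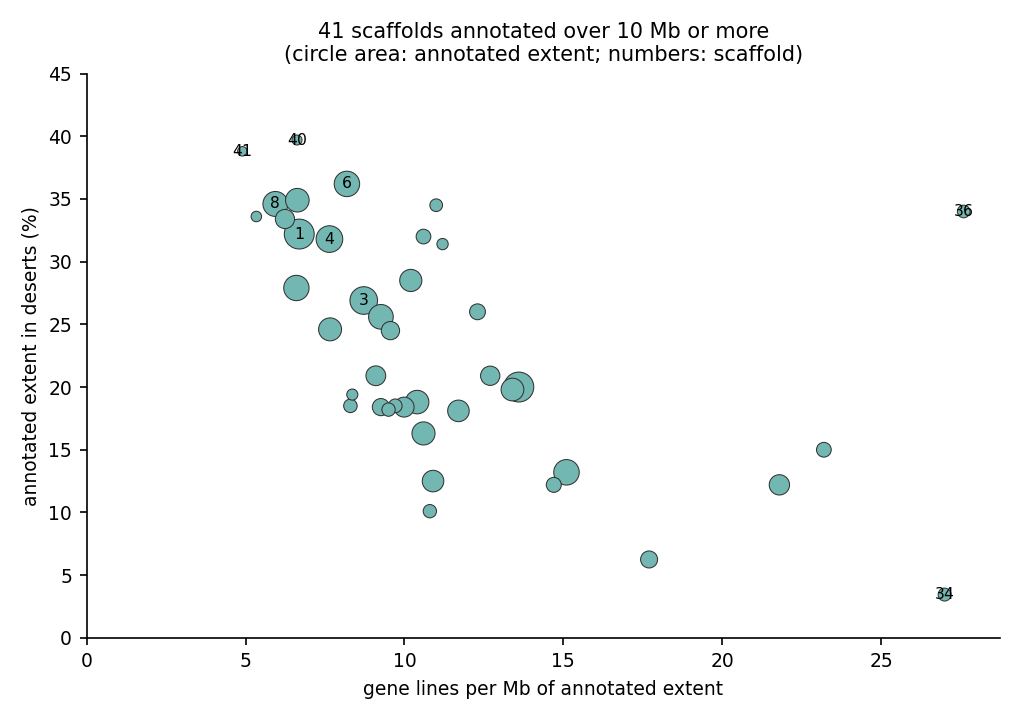
Share of each scaffold in deserts (y axis, percent of annotated extent) against gene lines per Mb (x axis) for the 41 scaffolds annotated over 10 Mb or more; circle area is the annotated extent and numbers name scaffolds. The share is lower on gene-rich scaffolds, from 39.7% on scaffold 40 to 3.45% on scaffold 34, and scaffold 36 has 34% at 27.6 gene lines per Mb.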

How the data were processed

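The 35 libraries entered no comparison, because the deposited file, an annotation of assembly talOcc3, has no column per library. The submitters' processing notes name STAR 2.6.1d with no role given. Start and end are 1-based positions as deposited. A score deposited by the authors on transcript models was not used. Its meaning and the making of the models labelled EVM, exonerate and ALN were not given in the sources used here. Sequence outside the first and last gene line of a scaffold is no gap, and a desert holds no gene line analysed here. Undetermined bases within deserts were not examined, since no talOcc3 sequence was used.

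Gaps, strands and gene lists were computed with numpy 2.4.6 and scipy 1.17.1 under Python 3.11.15, and drawn with matplotlib 3.10.9. Intervals of medians came from order statistics. Mouse distances lie between coding spans and mole distances between gene lines. Sequence ends of the later mole annotation were inferred from falling start positions. On simulated data, all 200 planted gaps among 23336 loci were found and 0 others, and all 100 pairs split by an inserted gene.

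Members and lists were chosen with earlier results of these data known. Genes named are edges of the 12 longest deserts, edges on the gonad and long-range lists, the 8 loci with most desert on both sides, the longest desert of the scaffolds with most deserts, the leading edges of each list, the gaps nearest the threshold, and the 4 largest and 4 smallest ratios to the mouse. Some edges that fall under this rule are not reported here. A few further genes are named as examples chosen after their values were seen. Alternatives varied which gene lines bound a gap, the threshold, the scaffolds, the positions used and the mouse genes counted.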

Additional observations from a re-analysis of the deposited data

How the results depend on the processing

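Of 50 values recomputed for 6 results under 10 alternatives, 29 stayed within 1.5 times the number of deserts or within the 95% interval of the reported value, and 21 did not. The share with both 5′ ends inward stayed within its interval under all alternatives run for it, from 27.4 to 29.9%. With a threshold of 1000000 bases, 137 deserts remained, with a median of 1277 kb by construction; 16.9% of adhesion and guidance loci and 3.24% of transcription regulators were edges, beside 1.14% of all named loci, and 62.2% of 45 pairs were mouse neighbours. With only models of more than 1 exon as bounds, these values were 806 kb, 33.6%, 16.8% and 64.3%. With only EVM models they were 851 kb, 37.8%, 22.1% and 49.1%. Without copy-suffixed lines, an alternative chosen after seeing the data, the first 3 were 800 kb, 37.7% and 16.3%. Leaving out unnamed lines too, also chosen after seeing the data, gave 799 kb, 39.1% and 17.1%. All named loci at an edge in these 4 settings, in the same order, were 5.9, 7.28, 5.93 and 6.31%. In all 4 fewer models bound a gap. Mouse neighbours were 90.4% when only mouse genes named in the mole file counted. They were 46.6% of 513 deserts when each edge was moved outward to the nearest gene named once in both, chosen after seeing the data, which adds skipped loci to the interval. No paired analysis was possible because no value belongs to a library. Gene models have no replicates, and the depth of the libraries is unknown.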

Other observations

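Some deserts abutted each other across a single locus with a copy suffix or without a symbol, and the text above treats that locus as an edge. Of the 87 loci with a desert on both sides, 21 were single-exon copies, 4 were copies with more exons and 2 had no symbol. Most were loci without a copy suffix, 52 with more than 1 exon and 8 with 1. When copies and loci without a symbol did not bound a gap, an alternative chosen after seeing the data, 574 intervals of 500 kb or more remained. They summed to 563 Mb, and 34 of them reached 2000 kb and 10 reached 3000 kb. The longest was then 4100 kb on scaffold 3 (12899687 to 16999383), between PIK3C3 and CELF4, an RNA-binding protein of neurons, with SLC35F5_copy2 and a model without a symbol inside. The same genes were neighbours in the mouse, 4519 kb apart. FAM181B and TENM4, on either side of ARPC3_copy4, were 3356 kb apart in both species. PTPRD, a receptor phosphatase of synapses, and TYRP1, on either side of RPL29_copy9, were 3258 kb apart in the mole and 4510 kb in the mouse.

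Adhesion genes, among others, bounded further intervals of this kind. PCDH20 and PCDH9 were 3179 kb apart with 4 copies or unnamed models inside, and 4545 kb apart in the mouse. ZEB2 and ACVR2A, an activin receptor, were 3046 kb apart around PPIA_copy7 and 3704 kb in the mouse. OLFM4 and PCDH17 were 2973 and 4424 kb apart, and ADGRL3 and IGFBP7 2962 and 3902 kb. In each of these pairs no mouse coding gene lay between. Over the 352 such intervals with both edges named once in both annotations, 240 pairs, 68.2% (63 to 73), were neighbours in the mouse, and 211 of the 240 were 500 kb or more there.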
